A study of Mus musculus with 58 samples.

Results

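The caudate-putamen (CPU) of C57BL/6 mice, labelled healthy, was compared with 10 other brain regions of C57BL/6 mice at 382 CpGs. Its members are the samples whose tissue label is caudate-putamen. They were run on 7 arrays, of which a pair, M4_a and M4_b, share 1 sample code and were averaged, so that n = 6 of 57 samples in the series. The other 10 regions held 47 samples: 6 from the substantia nigra (SN), 6 from the granular cell layer (GCL), 5 each from the globus pallidus (GP), thalamus (TH), hypothalamus (HYP), basolateral amygdala (BLA) and dentate gyrus (DG), 4 from hippocampal field CA3, 4 of Purkinje cells (PC) and 2 from frontal cortex labelled wild type on a C57BL/6 background (FC_WT). Their value was the unweighted mean of the 10 region means. The labels give neither age nor treatment. Nor do they say that the samples are separate animals, and p-values below reflect no more than sample-to-sample spread, which may be technical. FC_WT and samples F7 to F9 of DG carry another form of title than the rest, so region and title form cannot be told apart for FC_WT.

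The caudate-putamen is the dorsal striatum of rodents, the input stage of the basal ganglia. It receives glutamate fibres from the cortex and the thalamus and dopamine fibres from the substantia nigra. Most of its neurons are GABAergic projection neurons, which send their axons to the globus pallidus and the substantia nigra, and acetylcholine comes from local interneurons. Methylation of cytosine in CpG dinucleotides is a DNA mark that differs between cell types, and CpG-dense promoters are usually little methylated. The assay was a custom GoldenGate bead array, which compares signal for methylated and unmethylated cytosine after bisulphite conversion of the DNA. A beta value is the methylated share of that signal, from 0 to 1. In tissue samples, a change in the mixture of cells and a change of methylation within a cell type cannot be told apart. Each CpG is called here by the gene it is named for.

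CPU methylation was low at most CpGs: its mean beta was under 0.2 at 238 CpGs, 0.2 to 0.8 at 108 and over 0.8 at 36. The SD over the 6 samples had a median of 0.0104 at the 242 CpGs with a mean beta under 0.2 over the 53 samples, 0.0454 at the 102 with 0.2 to 0.8 and 0.0302 at the 38 over 0.8. It was over 0.1 at 14 CpGs. Averaged over all CpGs, CPU arrays had 0.260 to 0.294 and arrays of the other regions 0.249 to 0.289. The number of arrays limits the precision.

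Arrays CPU F1, F4 and M4_b stood apart from CPU F2, M1, M3 and M4_a at a small group of CpGs. Sctr, the secretin receptor gene, was at 0.434 in F1, 0.487 in F4 and 0.503 in M4_b, and at 0.0507 in F2, 0.0813 in M1, 0.0557 in M3 and 0.0681 in M4_a. M4_a and M4_b carry the same sample code, and they lay far apart in this range. Gria1, an AMPA receptor subunit gene, was at 0.330, 0.418 and 0.353 in F1, F4 and M4_b, while the other 4 arrays lay between 0.108 and 0.142. Sctr was over 0.2 in 15 of the 47 arrays of the other regions too, in 8 of the 10 regions. None of these CpGs passed the test between CPU and the other regions. The 3 CPU arrays also had the 3 lowest means over the CpGs called lower in CPU, at 0.531, 0.538 and 0.543, against 0.566 to 0.612 on the other 4. Counts are therefore also given without them, an alternative chosen after seeing the data. The part of this pattern in the results was otherwise not tested.

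**Figure D1:**
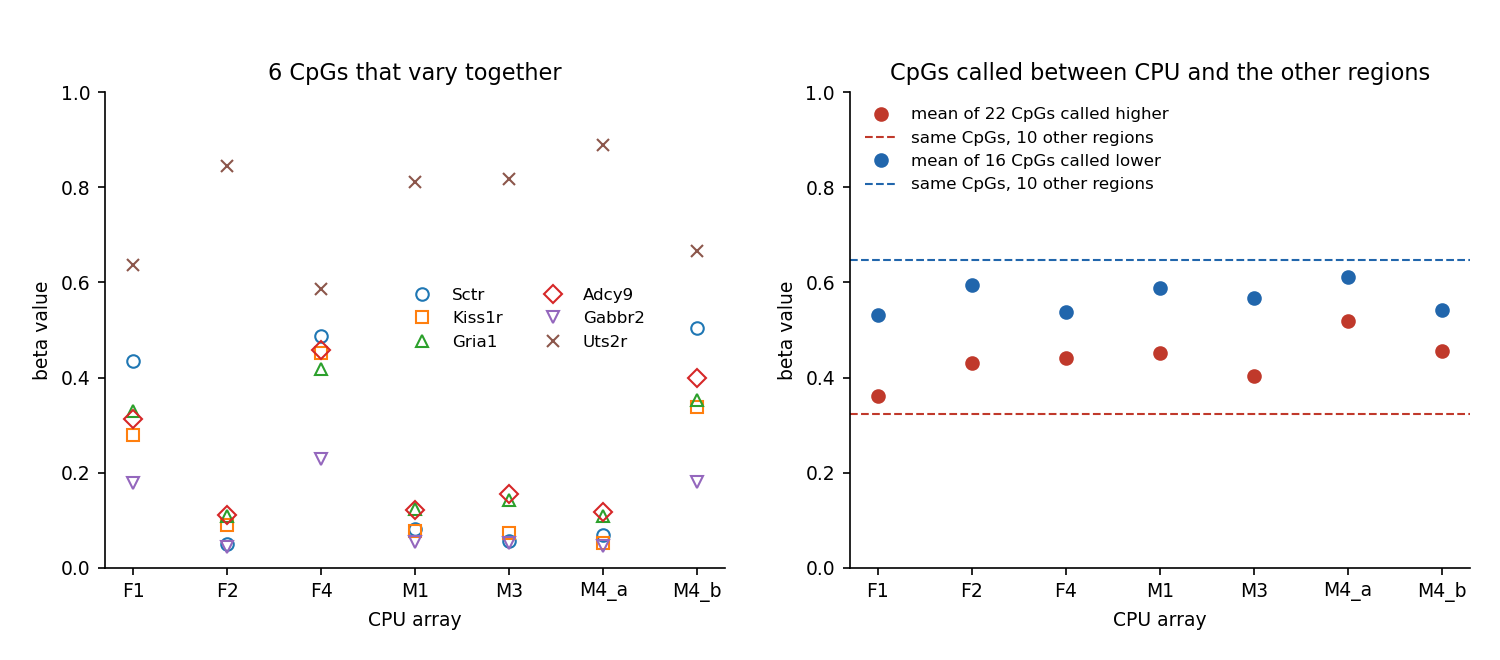
Beta values of the 7 CPU arrays. Left, 6 CpGs that vary together between arrays, with Sctr over 0.2 in F1, F4 and M4_b and under 0.1 in the other 4. Right, the mean of the 22 CpGs called higher and of the 16 called lower in CPU on each array, with dashed lines at the mean of the other 10 regions for the same CpGs (0.324 and 0.648).

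To show the sequence around genes whose CpGs carry the comparison, RefSeq promoter windows (GRCm38.p6, 250 bases before to 50 after the gene's start) are given for 2 genes called higher and 2 called lower, each with every CG in capitals. The labels do not say whether a measured CpG lies within these windows. The windows are Grm2 (chr9:106656060-106656359, minus strand), Bdkrb2 (chr12:105562922-105563221, plus strand), Chrm4 (chr2:91921939-91922238, plus strand) and Cysltr2 (chr14:73049065-73049364, minus strand).
Grm2: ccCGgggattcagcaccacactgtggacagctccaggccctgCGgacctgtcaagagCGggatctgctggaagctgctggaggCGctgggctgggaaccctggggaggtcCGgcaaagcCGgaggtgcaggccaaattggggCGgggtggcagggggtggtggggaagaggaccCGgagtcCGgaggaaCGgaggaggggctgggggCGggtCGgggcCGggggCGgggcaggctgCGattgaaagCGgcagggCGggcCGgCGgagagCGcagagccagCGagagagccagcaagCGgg
Bdkrb2: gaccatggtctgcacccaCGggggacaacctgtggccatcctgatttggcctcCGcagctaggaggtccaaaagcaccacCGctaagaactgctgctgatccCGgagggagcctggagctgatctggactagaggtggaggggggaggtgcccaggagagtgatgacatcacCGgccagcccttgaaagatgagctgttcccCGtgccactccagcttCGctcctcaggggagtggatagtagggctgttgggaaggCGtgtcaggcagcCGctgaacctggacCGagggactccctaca
Chrm4: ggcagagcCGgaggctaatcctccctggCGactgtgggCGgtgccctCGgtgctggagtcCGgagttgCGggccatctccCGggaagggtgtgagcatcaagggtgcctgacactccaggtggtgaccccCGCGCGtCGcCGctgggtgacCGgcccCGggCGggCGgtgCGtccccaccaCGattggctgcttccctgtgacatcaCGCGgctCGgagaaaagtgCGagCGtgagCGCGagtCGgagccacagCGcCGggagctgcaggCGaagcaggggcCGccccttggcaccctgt
Cysltr2: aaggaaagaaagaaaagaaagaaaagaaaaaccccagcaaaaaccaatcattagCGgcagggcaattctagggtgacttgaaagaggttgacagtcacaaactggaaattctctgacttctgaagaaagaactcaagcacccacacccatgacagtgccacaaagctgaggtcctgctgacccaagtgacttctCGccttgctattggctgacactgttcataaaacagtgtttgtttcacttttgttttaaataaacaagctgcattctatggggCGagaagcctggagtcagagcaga
The Grm2 window holds 22 CG, that of Bdkrb2 10, that of Chrm4 30 and that of Cysltr2 3. Genes on both sides of the comparison had CG-rich and CG-poor starts. RefSeq windows were matched for 284 of the 382 CpGs, with the first window taken for the 54 whose gene has several. The median number of CG was 14.5 over the 16 matched CpGs called higher, 7 over the 12 called lower and 17 over the 256 not called. At least 10 CG were found in 68.8%, 41.7% and 69.5% of these windows, and in 43.5% of all 32851 windows of the table. The level in CPU went with this number: the median was 21 CG where mean beta was under 0.2, 8.5 where it was 0.2 to 0.8 and 6 where it was over 0.8. These are counts of letters in the reference, given as a description.

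CPU differed from the mean of the 10 other regions at 38 CpGs, 9.95% of those tested (limma, Benjamini-Hochberg adjusted p under 0.05). At an unadjusted p under 0.05 there were 57. Methylation was higher in CPU at 22 (5.76%) and lower at 16 (4.19%). The widest differences in beta were at Sorbs3, Grm2, Grin2a, Tbxa2r and Bdkrb2 among the CpGs called higher and at Cysltr2, Ide, Avpr1b and Chrm4 among those called lower. The mean difference in beta was at least 0.1 at 12 of the CpGs called higher and 4 of those called lower. Over all 382 CpGs the median difference was -0.01 on the log2(beta / (1 - beta)) scale, on which all differences below are given with their SE. Without CPU F1, F4 and M4_b, 36 CpGs passed, 27 higher and 9 lower, with 20 of the 22 and 9 of the 16 kept.

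**Figure D2:**
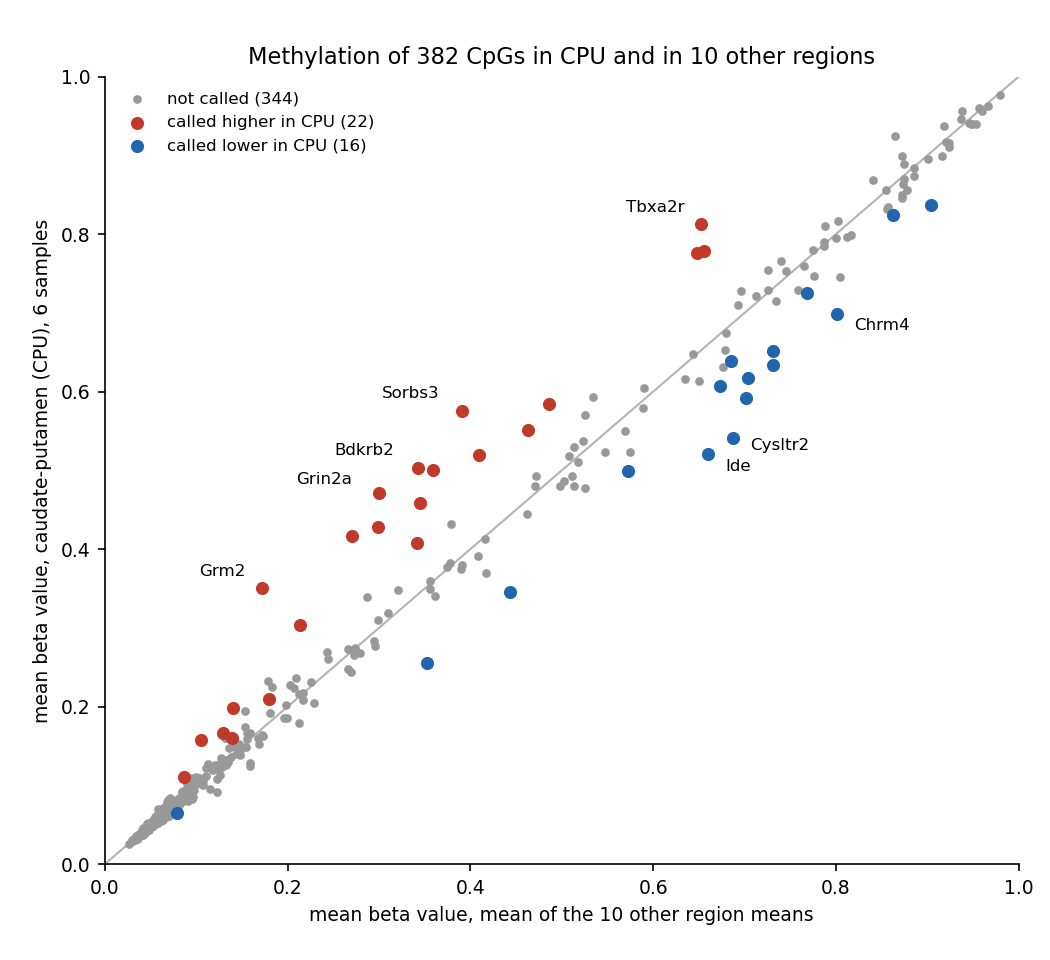
Mean beta value in CPU (vertical axis, 6 samples) against the mean of the 10 other region means (horizontal axis) for 382 CpGs. Red points are the 22 CpGs called higher in CPU, blue points the 16 called lower, grey points the 344 not called, and the line marks equal values.

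Calls lay mostly among CpGs of intermediate methylation. Of the 102 CpGs with a mean beta of 0.2 to 0.8 over the 53 samples, 15 were called higher and 12 lower, or 26.5%. Of the 242 with a mean under 0.2, 7 were called higher and 1 lower (3.31%), and of the 38 over 0.8, 0 were called higher and 3 lower (7.89%). CPU had the highest of the 11 region means at 16 CpGs and the lowest at 17. It was the highest at 8 of the 22 called higher, first or second highest at 15 of them, and the lowest at 6 of the 16 called lower. At 15 of the 22 the lowest other region was GCL or PC, and at 9 of the 16 it was FC_WT. No CpG separated all CPU samples from all 47 other samples (0 above and 0 below, 0% each), and 30 (7.85%) separated them from all samples of at least 4 regions.

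The glutamate receptor gene Grm2 had the lowest adjusted p of all CpGs tested. It encodes metabotropic glutamate receptor 2, which couples to inhibitory G proteins and limits glutamate release from nerve endings. Its beta values in CPU were 0.246, 0.362 and 0.357 in F1, F2 and F4 and 0.368, 0.316 and 0.452 in M1, M3 and M4, against a lowest, median and highest of 0.0879, 0.180 and 0.307 in the 47 other samples. Only 4 of those 47 lay above the lowest CPU sample, and all samples of 8 regions lay below it, BLA and GCL being the exceptions. The log2 difference was 1.43 ± 0.12 (SE; limma, adjusted p = 9.59e-13). In the order of region means, CPU (0.350) was followed by BLA (0.259), GCL (0.231) and PC (0.215), and FC_WT and DG came last at 0.103 each. Grm2 was the only fully described CpG called between CPU and each of the 10 regions taken singly, with the smallest step to BLA (0.63 ± 0.17, SE; limma, adjusted p = 0.0255). Of the 7 metabotropic receptor CpGs, 1 was called higher and 0 lower, against 9.95% of all CpGs called. Their median log2 difference was 0.05. Grm7, the only other member over 0.2, was at 0.518 ± 0.0172 (SD, n = 6) in CPU and 0.508 in the other regions.

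Among ionotropic glutamate receptors, 2 of 18 CpGs were called higher and 0 lower, against 9.95% of all CpGs called. The median log2 difference over the 18 was 0.01. Both called CpGs belong to genes of NMDA receptor GluN2 subunits. Grin2a ranged over 0.357, 0.490 and 0.588 (lowest, median, highest) in CPU and over 0.116, 0.318 and 0.602 in the other samples. The groups overlapped, with 18 of 47 other samples above the lowest CPU sample. Its region mean of 0.472 in CPU stood next to 0.466 in HYP, from which it did not differ beyond the spread (adjusted p = 0.995), and the largest step was to FC_WT at 0.132. Grin2c had 0.412, 0.496 and 0.610 in CPU, against 0.110, 0.387 and 0.618 elsewhere, and 19 of 47 other samples lay above the lowest CPU sample. Its log2 difference of 0.93 ± 0.16 (SE; limma, adjusted p = 2.49e-05) came to 0.56 without the cerebellar labels GCL and PC. Grin2c averaged 0.500 in CPU and 0.506 in BLA, and CPU was called higher than 5 regions only. The other GluN2 genes, Grin2b and Grin2d, were at 0.161 and 0.128 in CPU, against 0.168 and 0.124 in the other regions, and were not called.

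Sorbs3, which encodes the cell adhesion adaptor vinexin, had the widest difference in beta. Its lowest, median and highest values were 0.463, 0.579 and 0.693 in CPU, against 0.156, 0.394 and 0.638 in the other samples, of which 14 of 47 lay above the lowest CPU sample. CPU was called higher than 7 regions and not than BLA, HYP or SN, whose means were 0.507, 0.566 and 0.535. Without CPU F1, F4 and M4_b its log2 difference was 1.39 ± 0.22 (SE), against 1.14 ± 0.18 with them.

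Receptors for inflammatory and vascular mediators stood on both sides. Bdkrb2, the bradykinin B2 receptor gene, had 0.416, 0.516 and 0.563 in CPU, against 0.156, 0.383 and 0.473 in the other samples, a log2 difference of 1.01 ± 0.12 (SE; limma, adjusted p = 1.33e-08). CPU was called higher than 9 regions and differed from BLA, at 0.451, by less than the test could call (adjusted p = 0.706). Tbxa2r, the thromboxane A2 receptor gene, had 0.710, 0.836 and 0.860 in CPU, against 0.303, 0.696 and 0.871 elsewhere. Here CPU F1 was the low sample, and 23 of the 47 other samples lay above it. F2r, a thrombin receptor gene, averaged 0.520 ± 0.0677 (SD, n = 6) in CPU and 0.409 in the other regions. BLA, at 0.541, lay above CPU, which was called higher than 6 regions and not than BLA, FC_WT, GP or SN. On the other side, Cysltr2, a cysteinyl leukotriene receptor gene, had 0.496, 0.548 and 0.579 in CPU, against 0.532, 0.693 and 0.816 elsewhere. Only 2 of the 47 other samples lay below the highest CPU sample, and CPU was called lower than 9 regions, FC_WT being the exception. Of the 14 eicosanoid and protease-activated receptor CpGs, 2 were called higher and 1 lower, against 9.95% of all CpGs called. The median log2 difference of the 14 was -0.07.

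A pair of somatostatin receptor CpGs was higher and a pair of galanin receptor CpGs lower. Sstr1 averaged 0.417 ± 0.0548 (SD, n = 6) in CPU and 0.270 in the other regions, with a log2 difference of 1.09 ± 0.21 (SE; limma, adjusted p = 1.10e-04). Sstr3 averaged 0.428 ± 0.0337 (SD, n = 6) in CPU and 0.299 in the other regions, and its log2 difference of 0.95 was 0.53 without GCL and PC. CPU was called higher than 4 regions at Sstr1 and 5 at Sstr3, and not than BLA, HYP, SN or TH at either. BLA was at 0.355 for Sstr1 and 0.418 for Sstr3. Sstr2, Sstr4 and Sstr5 were not called. Sstr genes encode inhibitory receptors for the peptide somatostatin, which striatal interneurons also make. Galr3 was at 0.500 in CPU and 0.572 in the other regions, and Galr1 at 0.0649 in CPU and 0.0793 in the other regions. BLA was at 0.633 for Galr3 and 0.0658 for Galr1. The Galr3 call was lost without CPU F1, F4 and M4_b, where its log2 difference was -0.20, against -0.43 with them. Galr2 was not called. In this list of 11 CpGs, which includes tachykinin receptors, 2 were thus called higher and 2 lower, against 9.95% of all CpGs called. The median log2 difference of the 11 was -0.04.

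Chrm4 was among the lower CpGs that overlapped least with other regions. It encodes the inhibitory M4 receptor, which is abundant on striatal projection neurons. Its lowest, median and highest values were 0.665, 0.706 and 0.715 in CPU, against 0.610, 0.821 and 0.933 in the other samples. All CPU samples lay below all samples of 9 regions, and the 2 samples of FC_WT, with a mean of 0.618, lay below all of CPU. The log2 difference was -0.87 ± 0.15 (SE; limma, adjusted p = 1.58e-05) and -0.77 without CPU F1, F4 and M4_b. Of the 10 acetylcholine and histamine receptor CpGs, 0 were called higher and 1 lower, against 9.95% of all CpGs called. Their median log2 difference was -0.02. Outside that list, Chrna10, a nicotinic receptor subunit gene, averaged 0.256 ± 0.0194 (SD, n = 6) in CPU and 0.353 in the other regions.

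Ide encodes the insulin-degrading enzyme, a peptidase that also cleaves amyloid beta. Its values in CPU were 0.454, 0.522 and 0.569 (lowest, median, highest), against 0.370, 0.682 and 0.858 elsewhere. The pattern was that of Chrm4: all CPU samples lay below all samples of 9 regions and above both FC_WT samples, which averaged 0.372. CPU was called lower than 8 regions and higher than FC_WT, and BLA was at 0.627. In the 4 CpGs of amyloid and tau related genes 0 were called higher and 1 lower, against 9.95% of all CpGs called. Their median was -0.02. Mme, the gene of the amyloid-degrading peptidase neprilysin, was at 0.166 in CPU and 0.156 in the other regions.

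**Figure D3:**
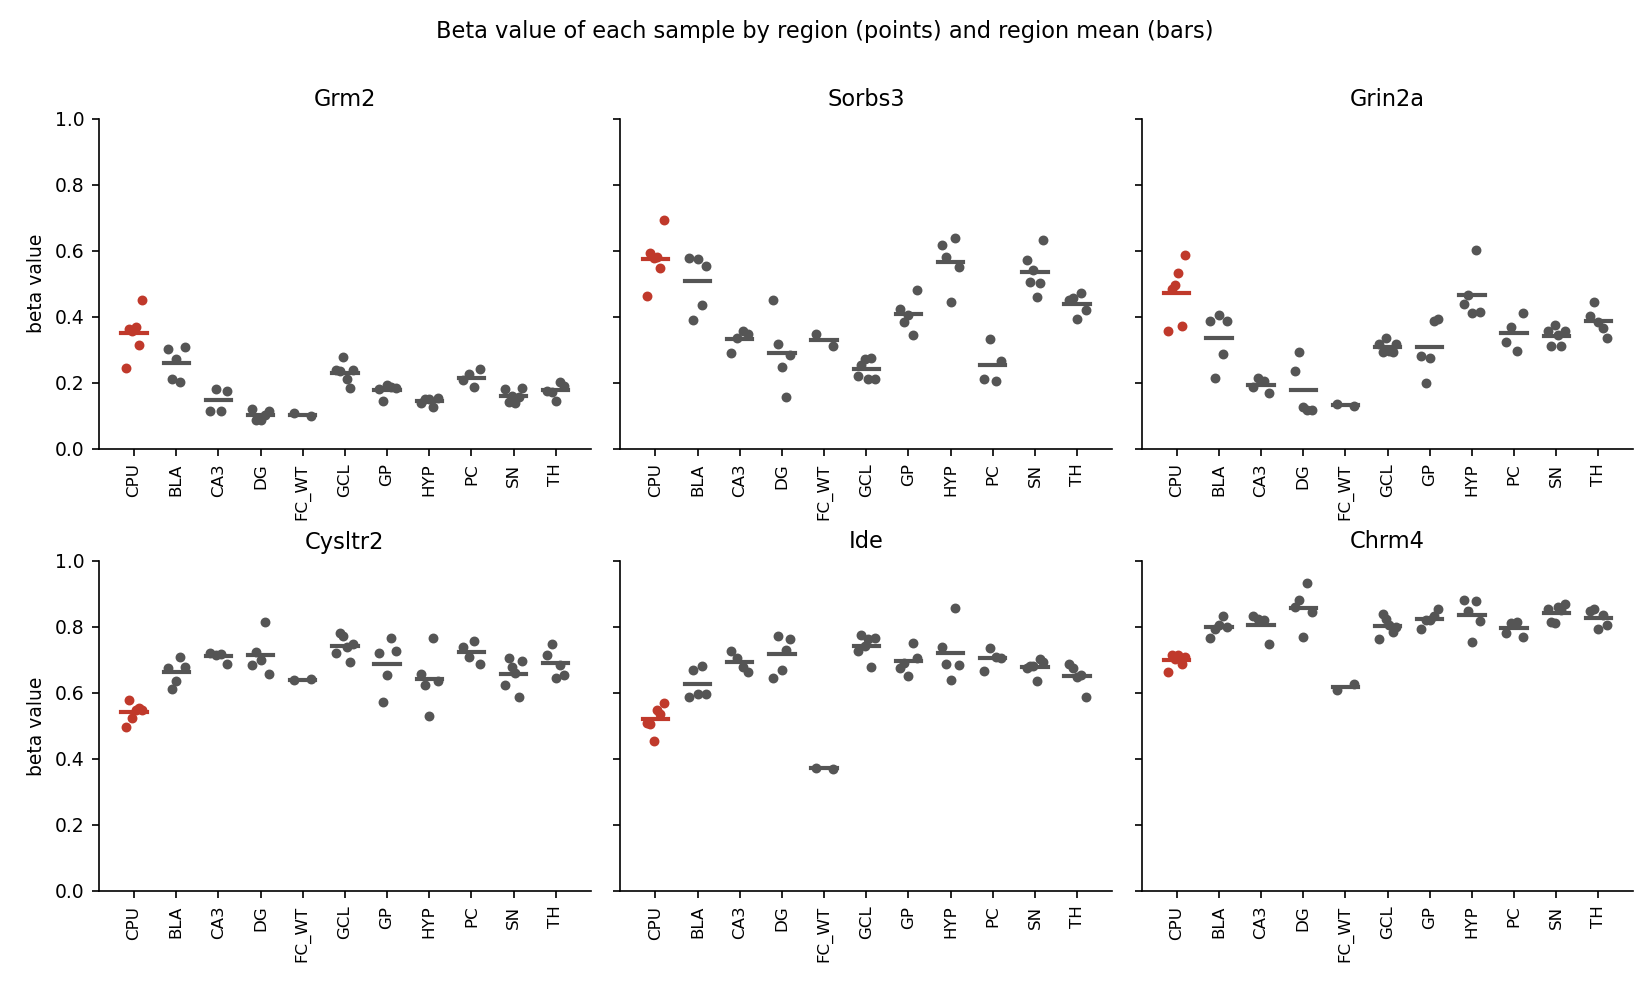
Beta value of each sample (points) and the mean of each region (horizontal bars) for 3 CpGs called higher in CPU (top row) and 3 called lower (bottom row), with CPU in red at the left of each panel. At Grm2 the CPU samples lie above all samples of 8 regions, and at Ide and Chrm4 they lie below all samples of 9 regions and above FC_WT.

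The dopamine, serotonin and adrenergic lists held 24 CpGs, of which 3 were called (12.5%, against 9.95% of all CpGs). The dopamine list gave 0 calls among 5 CpGs, with a median log2 difference of -0.07: Drd1a was at 0.0363 in CPU and 0.0398 in the other regions, Drd2 at 0.0945 in CPU and 0.0944 in the other regions, and Drd3 at 0.963 in CPU and 0.967 in the other regions. The widest differences of this list were at Drd5, with 0.124 in CPU and 0.113 elsewhere, and Drd4, with 0.0755 in CPU and 0.0806 elsewhere. Among 10 serotonin receptor CpGs, 1 was called higher and 1 lower, with a median of 0.01. Htr1d, an inhibitory serotonin receptor gene, had 0.799, 0.838 and 0.864 in CPU, against 0.817, 0.910 and 0.9498 in the other samples. Its log2 difference was -0.91 ± 0.15 (SE; limma, adjusted p = 5.76e-06), and 2 of the 47 other samples lay below the highest CPU sample. Htr4 averaged 0.111 ± 0.0158 (SD, n = 6) in CPU and 0.0863 in the other regions. Of 9 adrenergic receptor CpGs, whose median was 0.02, 0 were called higher and 1 lower. This was Adra2c, with 0.726 in CPU and 0.769 in the other regions. That call was lost without CPU F1, F4 and M4_b (log2 difference -0.07, against -0.34 with them).

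GABA receptor genes had 1 call in each direction among 18 CpGs, against 9.95% of all CpGs called. Their median log2 difference was 0.0037. Gabra6, a GABA-A receptor subunit gene known for its expression in cerebellar granule cells, averaged 0.552 ± 0.0578 (SD, n = 6) in CPU and 0.463 in the other regions. BLA was also at 0.552 here. The call rested on the cerebellar labels: without GCL and PC the log2 difference was 0.22, against 0.54 with them. Gabrp averaged 0.617 ± 0.0530 (SD, n = 6) in CPU and 0.704 in the other regions, and lost its call without CPU F1, F4 and M4_b (-0.37, against -0.60 with them). The list drawn up by adenosine and purinergic receptor names gave 0 calls among 16 CpGs, against 9.95% of all CpGs called. Its median was -0.00034. The widest differences were at P2ry5, now named Lpar6, with 0.432 in CPU and 0.379 elsewhere, and P2ry10, with 0.493 in CPU and 0.472 elsewhere. Not every gene so named need be a purinergic receptor. The cannabinoid and opioid list gave 0 calls among 5 CpGs, against the same 9.95%, with a median of 0.03. Cnr2 was at 0.594 in CPU and 0.535 in the other regions, and Trpv1 at 0.647 in CPU and 0.643 in the other regions.

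Of 7 ion channel CpGs, 2 were called higher and 0 lower, against 9.95% of all CpGs called. The median log2 difference of the 7 was 0.10. Cacna1d, the gene of an L-type calcium channel subunit, had 0.701, 0.784 and 0.820 in CPU, against 0.254, 0.732 and 0.845 in the other samples, and 25 of the 47 other samples lay above the lowest CPU sample. It was called higher than 4 regions only, and without GCL and PC its log2 difference was 0.35 and not called, against 0.83 with them. Kcnd2, a potassium channel gene, averaged 0.166 ± 0.0171 (SD, n = 6) in CPU and 0.130 in the other regions, and BLA was at 0.171.

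The cell type marker lists held 15 CpGs, of which 2 were called (13.3%, against 9.95% of all CpGs), and methylation of a marker gene is not its expression. Striatal projection neuron markers (Drd1a, Drd2, Adora2a) gave 0 calls among 3 CpGs, with a median log2 difference of -0.11 and all with mean beta under 0.1 in CPU, and Adora2a was at 0.0552 in CPU and 0.0613 in the other regions. Gap43 and Reln, markers of other neurons, were at 0.350 and 0.149 in CPU, against 0.355 and 0.154 in the other regions, and were not called. Gfap, the astrocyte filament gene, had 0.693, 0.792 and 0.819 in CPU, against 0.313, 0.718 and 0.850 in the other samples. It was called higher than 4 regions, and its call was lost without GCL and PC. Slc1a3, the second of 2 astrocyte markers, was at 0.216 in CPU and 0.213 in the other regions. Of 7 oligodendrocyte markers, with a median of -0.08, Gal3st1, a gene of sulfatide synthesis in myelin, was called higher, with 0.210 in CPU and 0.180 in the other regions. Its call was lost without CPU F1, F4 and M4_b, and also without FC_WT. Mag, Mbp, Olig2, Cnp and Gm98 were not called. The 1 immune marker, Ifng, was at 0.856 in CPU and 0.878 in the other regions, and no endothelial marker of the list was on the array (0 CpGs).

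Further CpGs called higher belonged to genes of other receptors and regulators. Npy6r, a receptor gene of the neuropeptide Y family, averaged 0.459 ± 0.0701 (SD, n = 6) in CPU and 0.345 in the other regions, and its call was lost without GCL and PC (log2 difference 0.45, against 0.74 with them). Id3, which encodes an inhibitor of basic helix-loop-helix transcription factors, had 0.127, 0.164 and 0.185 in CPU, against 0.0577, 0.107 and 0.168 elsewhere. All CPU samples lay above all samples of 7 regions, and 9 of the 47 other samples lay above the lowest CPU sample. Its log2 difference was 0.69 ± 0.10 (SE; limma, adjusted p = 1.27e-06). Col11a2, a collagen chain gene, averaged 0.198 in CPU and 0.141 in the other regions. Pthr1, the parathyroid hormone receptor gene, was at 0.584 in CPU and 0.487 elsewhere. Calcr, the calcitonin receptor gene, was at 0.304 in CPU and 0.213 elsewhere, and Mtnr1b, a melatonin receptor gene, at 0.408 in CPU and 0.342 elsewhere. The calls of these 3 hormone receptors were lost without GCL and PC. BLA lay above CPU at all 3, with 0.587 at Pthr1, 0.321 at Calcr and 0.429 at Mtnr1b. Agtr1a, an angiotensin receptor gene, was at 0.160 in CPU and 0.140 elsewhere. Its call was lost without CPU F1, F4 and M4_b, and also without FC_WT.

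The other CpGs called lower belonged to genes of several kinds. Myo5a, a motor protein gene, averaged 0.634 ± 0.0271 (SD, n = 6) in CPU and 0.732 in the other regions, with a log2 difference of -0.68 ± 0.12 (SE; limma, adjusted p = 3.77e-05). Avpr1b, a vasopressin receptor gene, averaged 0.592 ± 0.0416 (SD, n = 6) in CPU and 0.702 in the other regions, and was called lower than 8 regions. Ush1g, a scaffold gene of hair cells, was at 0.346 in CPU and 0.444 elsewhere, but the call was lost without GCL and PC (-0.21, against -0.57 with them). Taken singly, CPU was called lower than 5 regions and higher than 1 at Ush1g, and CA3 was at 0.343. Spnb4, a spectrin gene of axon initial segments, was at 0.652 in CPU and 0.732 elsewhere. Its call, and those of the metabolic enzyme gene Dld, the hair cell gene Tmhs and the relaxin family receptor gene Rxfp2, were lost without CPU F1, F4 and M4_b. Dld was at 0.608 in CPU and 0.674 elsewhere, Tmhs at 0.639 in CPU and 0.686 elsewhere, and Rxfp2 at 0.824 in CPU and 0.862 elsewhere. Leaving out 1 CPU sample was enough to lose some of the weaker calls. Gal3st1, Agtr1a, Galr3, Dld, Tmhs, Adra2c and Rxfp2 were lost without CPU F1, and all of these but Agtr1a without CPU F4. Galr1 was lost without CPU F2, F4, M1 or M3 or sample 3 of FC_WT, and Mtnr1b without CPU M1 or M4. Without CPU F2 the calls of Gal3st1, Agtr1a, Galr3 and Adra2c were lost, and without CPU M4 that of Galr3. Gal3st1, Agtr1a and Dld were lost without CPU M1, and the same 3, Tmhs and Adra2c without CPU M3. Agtr1a also needed sample 1_a of FC_WT, F4 and M4 of CA3, F1 of BLA and F2 of PC.

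At the CpGs called higher, CPU F1 was the lowest of the 6 samples at 19 of the 22 and CPU M4 the highest at 17. Over all 382 CpGs, CPU F1 was the lowest at 105 and the highest at 166, and CPU M4 the highest at 84. Averaged over the 22 CpGs, beta was 0.362 in F1, 0.431 in F2, 0.440 in F4, 0.451 in M1, 0.402 in M3 and 0.488 in M4, against 0.324 in the other regions. F1 was above the mean of the other regions at 20 of the 22, M4 at 21 and the other 4 samples at 22. At the 16 CpGs called lower the means were 0.531, 0.595, 0.538, 0.588, 0.566 and 0.578 in the same order, against 0.648 in the other regions. The arrays M4_a and M4_b differed by a median of 0.0230 in absolute beta and by at least 0.1 at 36 CpGs, where the 10 pairs of the other CPU arrays had medians of 0.00820 to 0.0278. M4_b was above M4_a at 3 of the 22 and 1 of the 16, and at 211 of all 382 CpGs.

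The number of calls depended on the region. CPU differed from BLA at 11 CpGs (2.88%, 1 higher and 10 lower in CPU), from TH at 18 (4.71%, 6 and 12), from CA3 at 22 (5.76%, 16 and 6), from GP at 23 (6.02%, 10 and 13), from HYP at 23 (6.02%, 4 and 19) and from SN at 29 (7.59%, 4 and 25). The counts were 70 for GCL (18.3%, 47 and 23), 79 for DG (20.7%, 54 and 25), 91 for PC (23.8%, 36 and 55) and 95 for FC_WT (24.9%, 86 and 9). All 10 comparisons share the CPU samples. BLA had the lowest count. The highest was at FC_WT here, but at PC on untransformed beta (116, against 71 for FC_WT) and without CPU F1 (131, against 82), and at a minimum difference of 0.1 it was at GCL (44, against 40 for PC and 30 for FC_WT). The widest differences were at Galr3 and Cysltr2 from BLA, at Grm2 and Tbx1 from both SN and TH, at Ide and Grm2 from both GP and HYP, and at Grin2a and Tbxa2r from CA3. From the cerebellar labels they were at Cacna1d and Grin2c (GCL) and at Cacna1d and Ush1g (PC), from DG at Tbxa2r and Gfap, and from FC_WT at Grin2a and Mas1. Cacna1d was at 0.776 in CPU, against 0.320 in GCL and 0.375 in PC, and Tbx1, a developmental transcription factor gene, at 0.277 in CPU, against 0.439 in SN and 0.449 in TH.

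These counts depended on the arrays that stood apart and on the scale. Without CPU F1, F4 and M4_b, 1 CpG was called against BLA (1 higher, 0 lower), 8 against TH (6 and 2), 15 against HYP (4 and 11), 16 against SN (6 and 10) and 150 against PC (48 and 102). Leaving out every array of any region with Sctr over 0.2 gave 2, 2, 9, 10 and 135. Without the 3 CPU arrays there were 23 calls against CA3, 25 against GP, 65 against GCL, 64 against DG and 79 against FC_WT. Against PC, 38 were higher and 93 lower without CPU F1 alone, 35 and 31 without CPU F2, and 36 and 80 on untransformed beta. There were 33 and 36 without CPU F4. Against BLA, 0 CpGs were called without CPU F4 alone, 6 without CPU F1, 17 on untransformed beta, 5 (1 and 4) with quantile normalization and 2 (0 and 2) after centring every array's values on 1 median. Against TH centring left 9 (4 and 5). The split against FC_WT turned to 52 higher and 62 lower with quantile normalization and to 27 and 76 with centring, against 86 and 9 without either, where all CpGs had a median log2 difference of 0.16. Against DG the split was 48 higher and 51 lower with quantile normalization and 38 and 43 with centring. Against GCL it was 47 and 59 with quantile normalization and 38 and 35 with centring. CA3 and HYP moved too with quantile normalization, to 22 higher and 12 lower and to 7 and 16.

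**Figure D4:**
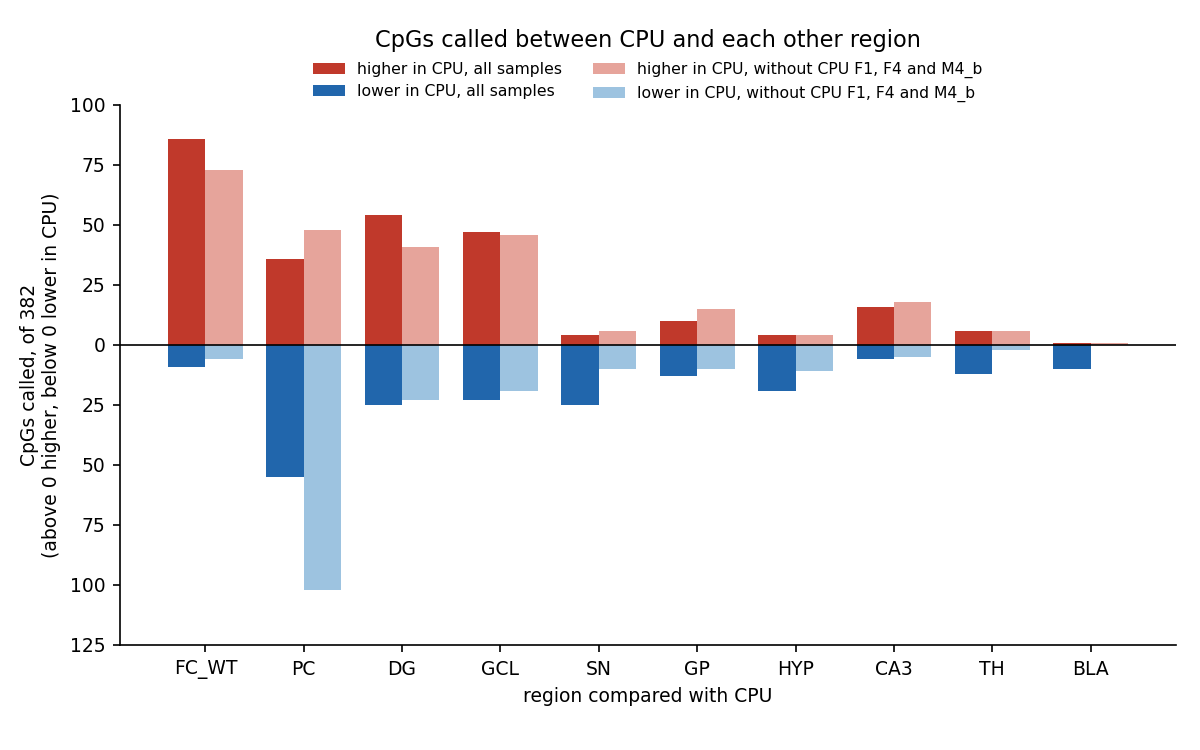
Number of the 382 CpGs called between CPU and each other region, with higher in CPU above 0 and lower in CPU below it. Dark bars use all samples and pale bars leave out CPU F1, CPU F4 and array M4_b. The dark bars run from 11 calls against BLA to 95 against FC_WT.

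Whole profiles were also compared. The 382 CpGs differ widely in level, so that all correlations are high. The median Pearson correlation of CPU samples was 0.9837 with each other and 0.9844 with BLA, so it did not set CPU apart from BLA. The median was 0.981 with HYP and SN, 0.980 with TH, 0.979 with GP and 0.977 with CA3. It was 0.968 with FC_WT, 0.956 with DG, 0.953 with PC and 0.951 with GCL. For 4 of the 6 CPU samples the best correlated sample was another CPU sample. For CPU F1 it was a GP sample and for CPU F2 a BLA sample.

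The sample codes carry a letter, F or M, that the labels do not explain, and 3 CPU samples have each. The comparison by letter left out DG F7 to F9. DG thus had 1 sample with each letter, and PC had 1 with M, which limits what it can show. CPU differed from 9 other regions (without FC_WT, whose codes have no letter) at 25 CpGs among F-coded samples (6.54%) and at 29 among M-coded samples (7.59%). Of the 38 CpGs called above, 38 had the same sign with both letters, 24 were called with F, 28 with M and 20 with both. The 38 were chosen with these same CPU samples, so their agreement between letters was largely set in advance and is no separate support. At Grm2 CPU had 0.322 with F and 0.379 with M, against 0.182 with F and 0.179 with M in the other regions. The difference between the letters was called at 0 CpGs (0%; limma, lowest adjusted p = 0.984), with 2 at an unadjusted p under 0.05. The 5 lowest p-values were at Id4, Ppp3ca, Egr2, Mbp and Kiss1r. The F count fell to 7 without CPU F4 and the M count to 15 without CPU M4.

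Inside CPU the letter went with the X-linked CpGs. All F-coded samples lay below all M-coded samples at 15 of 17 X-linked CpGs and above at 0, or 88.2% not overlapping, against 8.12% of all 382 CpGs and 4.38% of the 365 others. Gabrq, a GABA-A receptor subunit gene, had 0.319, 0.171 and 0.182 in F1, F2 and F4, against 0.738, 0.714 and 0.759 in M1, M3 and M4. L1cam, a neural cell adhesion gene, had 0.217, 0.158 and 0.189 in the F-coded samples, against 0.560, 0.519 and 0.511 in the M-coded samples. P2ry4 and P2ry10 were the pair that overlapped. An exact two-sided permutation test of 3 against 3 samples cannot give a p below 0.10. Of the X-linked CpGs, 0 were called between CPU and the other regions.

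**Figure D5:**
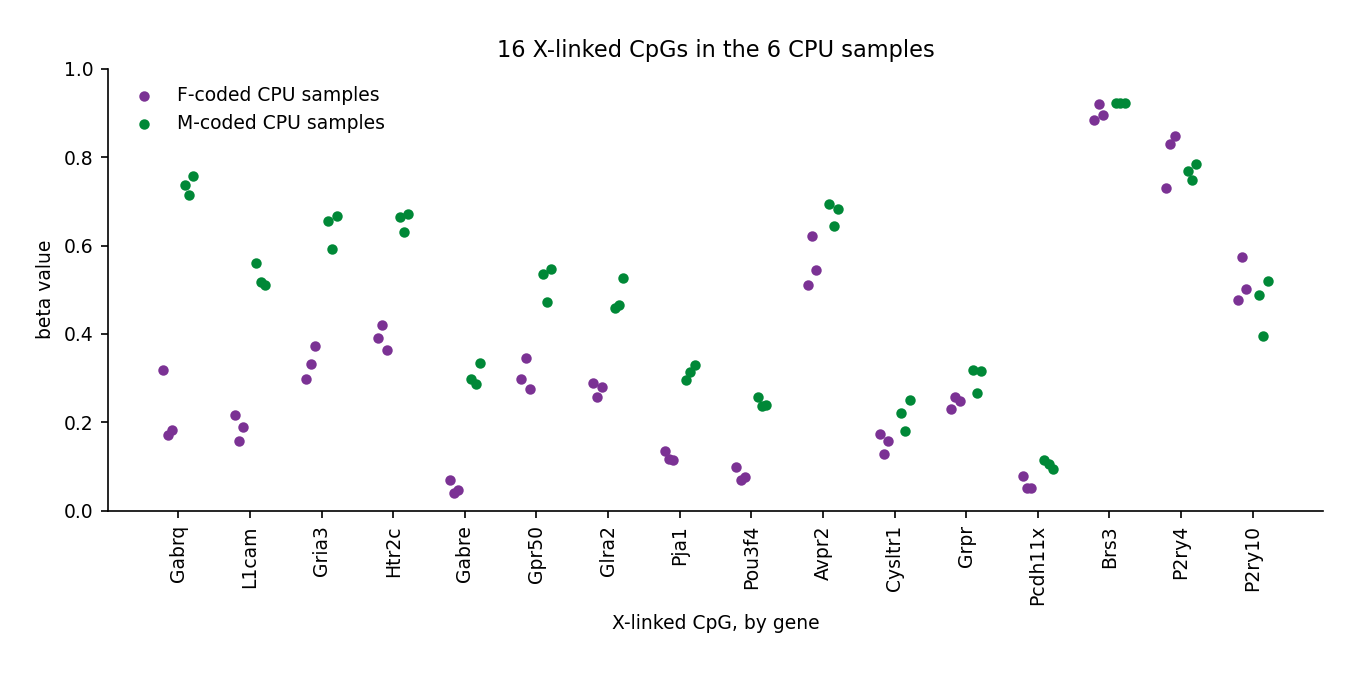
Beta values of 16 X-linked CpGs in the 6 CPU samples, with the 3 F-coded samples at the left and the 3 M-coded samples at the right of each gene. At 14 of these 16 genes all F-coded samples lie below all M-coded samples.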

How the data were processed

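Genomic DNA was extracted with phenol, per the labels' protocols, and after bisulphite conversion was hybridised to a custom GoldenGate array. Beta values of 382 CpGs, each a fraction of methylated signal, were used as deposited. How they were normalized, and with which scanner software and genome build, was not given in the sources used here. Values ran from 0.0196 to 0.986 with 0 missing.

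Samples were grouped by tissue label, and arrays M4_a and M4_b of CPU were averaged. limma 3.58.1 (R 4.3.3) was fitted over the 53 samples of 11 regions on log2(beta / (1 - beta)), beta limited to 0.01 to 0.99, with eBayes and Benjamini-Hochberg adjustment over 382 CpGs, and calls were made at an adjusted p under 0.05. Contrasts were CPU minus the unweighted mean of 10 regions, CPU minus each region, and CPU minus 9 regions by code letter. Gene names were matched to RefSeq, 362 by symbol and 20 by synonym. Python 3.11.15 and pandas 2.3.3 were used for summaries.

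The 12 widest CpGs higher and 8 widest lower were described in full, other calls by their means, and lists without a call by their 2 widest members. The region, lists and rules were chosen with earlier results of these data known. Sample codes recur across regions. The correlation of same-coded samples' deviations from region means was over 0.1 in 29 of 39 pairs, and in 15 without X-linked CpGs. Codes were not taken as pairs, though these values cannot show whether a code marks 1 animal. Alternatives covered scale, limits, normalization, filters, minimum difference, variance moderation, either M4 array, code blocks, regions and samples left out. 1 gene of the lists is not reported by name here; it is part of the counts.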

Additional observations from a re-analysis of the deposited data

Results flagged for a closer look

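Among the 49 CpGs described by name, the 6 CPU samples were searched for a single sample whose gap to the nearest other, divided by the whole range, passed Dixon's critical value of 0.625. Chance flags about 1 in 20 groups. In 3 CpGs CPU F1 was the high sample. Drd5 was at 0.1426 in CPU F1 (gap over range 0.64), Adora2a at 0.07185 (0.633) and Drd1a at 0.04525 (0.67). All 3 are CpGs of low methylation that were not called between CPU and the other regions, and CPU F1 is 1 of the arrays with high Sctr.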

How the results depend on the processing

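Each result was recomputed under up to 80 alternatives. Beside these, a minimum difference of 0.1 was tried. Of the 38 calls, 19 passed under the 80, 19 were lost under 1 or more of them and 0 reversed, and 13 of the first 19 also reached the minimum difference. Among the 20 CpGs described in full 15 passed under the 80, 13 of them with the minimum difference, and 5 were lost: Cacna1d, Gfap and Npy6r without GCL and PC, Ush1g without GCL, PC or both, and Gabrp without the arrays of high Sctr. The 38 calls became 16 (12 higher, 4 lower) with a minimum difference of 0.1, 49 with quantile normalization, 36 with centring and 30 without GCL and PC, and 32 to 42 with 1 sample left out. Without FC_WT, 36 of the 38 were kept, and the calls of Gal3st1 and Agtr1a were lost. Both were also lost with quantile normalization and with centring. The 16 CpGs called lower ranged from 10, without CPU F4, to 17 with 1 sample left out, and were 9 both without the CPU arrays with Sctr over 0.2 and without all such arrays. With M4_a alone as CPU M4 there were 36 (24 higher, 12 lower). Deviations of same-coded samples from region means had a median correlation of 0.290 over all CpGs, with 29 of 39 pairs over 0.1. Without X-linked CpGs it was -0.0719, with 15 of 39. Pairs with different codes had medians of -0.0789 and -0.0104. Codes were not taken as pairs, and these values cannot show whether a code marks 1 animal. With the code as a replicate block, without FC_WT, 40 CpGs were called, 34 of the 38 kept, and the 10 region comparisons, 461 calls in all, gave 299 over 9 regions with 0 against DG, where 4 of the 5 codes occur in no other of these regions. A random block left 38. A minimum difference of 0.1 left 227 of the 461. With 1 sample left out, F-coded calls ranged from 7 to 29 and M-coded calls from 15, without CPU M4, and 19, without CPU M1, to 29. M-coded calls were 46 with quantile normalization. Unless stated, the causes were not tested. Bead numbers and signal over background were not used here.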

Other observations

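The CpGs that moved with Sctr between arrays form a small set. Over the 54 arrays of the 11 regions, as deviations from region means, 6 other CpGs correlated with Sctr at 0.9 or more: Gria1, Kiss1r, Adcy9, Adora2b, Gabbr2 and Hcrtr1. These are genes of an AMPA receptor subunit, the kisspeptin receptor, an adenylate cyclase, an adenosine receptor, a GABA-B receptor subunit and an orexin receptor. The labels give no batch for these arrays, and the correlations are a description. Kiss1r was at 0.279 in CPU F1, 0.452 in F4 and 0.338 in M4_b, and between 0.0517 and 0.0900 on the other 4 CPU arrays. Adcy9 was at 0.313, 0.459 and 0.399, and between 0.111 and 0.155 on the other 4. Uts2r, the urotensin receptor gene, ran the other way, at 0.636, 0.587 and 0.666, and between 0.811 and 0.890 on the other 4. None of the 22 CpGs called higher or 16 called lower in CPU reached a correlation of 0.7 in either direction (0 of each). Of all 382 CpGs only 9 reached 0.7 and 1 reached -0.7, so this count says little. The median correlations of the CpGs called higher and lower were -0.0513 and -0.317, against 0.108 over all 382 CpGs.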
